A study of Macaca fascicularis with 6 samples.

Results

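Alveolar type 1 (AT1) cells of the monkey lung were described from single-cell RNA sequencing of 6 cynomolgus monkeys (Macaca fascicularis), with 1 library per animal. The control group held replicates 1, 2 and 3, which the labels call normal and which received saline. The asthma group held replicates 8, 10 and 11, which were sensitized by injection of Ascaris suum antigen, a roundworm extract, and then challenged with it through the airway. All 6 animals were males of 3 to 5 years, and the labels give no genetic change or drug in either group. The paper describes airway tests with methacholine in both groups, with lung tissue taken after them. The libraries came from dissociated lung tissue, so only cells that survived dissociation and dead cell removal were counted.

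AT1 cells were selected by transcripts alone. A retained cell had more than 500 and fewer than 5000 detected genes and at most 25% of its unique molecular identifiers (UMIs, each standing for 1 captured mRNA molecule) in the 13 mitochondrial protein genes. An AT1 cell had at least 2 UMIs of AGER and at least 1 UMI of 2 or more among RTKN2, CLDN18, EMP2, CYP4B1 and HOPX. It had at most 2 detected genes among the AT2 genes SFTPD, SLC34A2, PGC, NAPSA, LAMP3 and ABCA3, no UMI of PTPRC (leukocytes), PECAM1 or CLDN5 (endothelium), and fewer than 50 UMIs of ITLN1, an intelectin abundant in mesothelium. This gave 288 AT1 cells among 25388 retained cells, from 35133 deposited barcodes. Control replicates 1, 2 and 3 held 18, 4 and 6 AT1 cells, and asthma replicates 8, 10 and 11 held 97, 40 and 123. The groups thus rest on 28 and 260 cells, and control replicate 2 on 4.

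AT1 cells are the thin, flat epithelial cells that cover most of the gas exchange surface of the lung. Their body is rich in caveolae, rests on a basement membrane shared with the capillary endothelium, and is sealed to its neighbours by tight junctions. They move water and ions out of the airspace, send growth factors such as VEGFA to the capillaries, and arise from alveolar type 2 (AT2) cells, the surfactant-making cells of the same epithelium, under control of NKX2-1 and of the Hippo pathway effectors YAP1 and TAZ. AGER, the receptor for advanced glycation end products, is their most used marker.

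Levels below are counts-per-million (CPM), the UMIs of a gene over all UMIs of the AT1 cells of 1 library added together. Values of single libraries follow the order of control replicates 1, 2, 3 and asthma replicates 8, 10, 11. Since 1 UMI stands for 1 molecule captured at its 3′ end, levels of different genes compare molecules and were not divided by gene length. The AT1 cells of the 6 libraries gave 84508, 16790 and 17850 UMIs in the control libraries, and 459994, 159591 and 357797 in the asthma libraries. A count of 3 UMIs, below which a gene was read as not detectable, equalled 35.5, 179 and 168 CPM in the control libraries and 6.52, 18.8 and 8.38 in the asthma libraries. Low genes were therefore measurable in the asthma libraries but not in control replicates 2 and 3. The whole libraries were of like depth, from 29014556 UMIs in asthma replicate 11 to 41489879 in asthma replicate 10.

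The genes that define AT1 cells were high in the selected cells of every library. AGER, which the rule used, stood at 10946, 14413 and 13501 CPM in the control libraries and at 11635, 12369 and 11943 in the asthma libraries (12468 ± 1277, SD, n = 6). It was the third most abundant transcript of the cells after the mitochondrial COX2 and COX3. In the other cell groups, each chosen by 2 or more genes of its own, pooled AGER was 201 in AT2 cells, 29.0 in T cells, 17.4 in the 37 endothelial cells, 11.9 in airway cells, 8.71 in fibroblasts, 6.13 in macrophages and 4.37 in mesothelial cells. RTKN2 (rhotekin 2) averaged 1206 ± 253 (SD, n = 6) in AT1 cells and 27.7 in pooled AT2 cells. CLDN18, a tight junction claudin that AT2 cells also make, averaged 4501 ± 1121 against 1256. All 5 further genes of the rule were detected in 73.6% of AT1 cells (212 cells), from RTKN2 in 83.0% to EMP2 in 99.7%. EPCAM, a general epithelial gene that the rule did not use, was detected in 65.3% of them. These values describe the selection and test nothing.

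**Figure D1:**
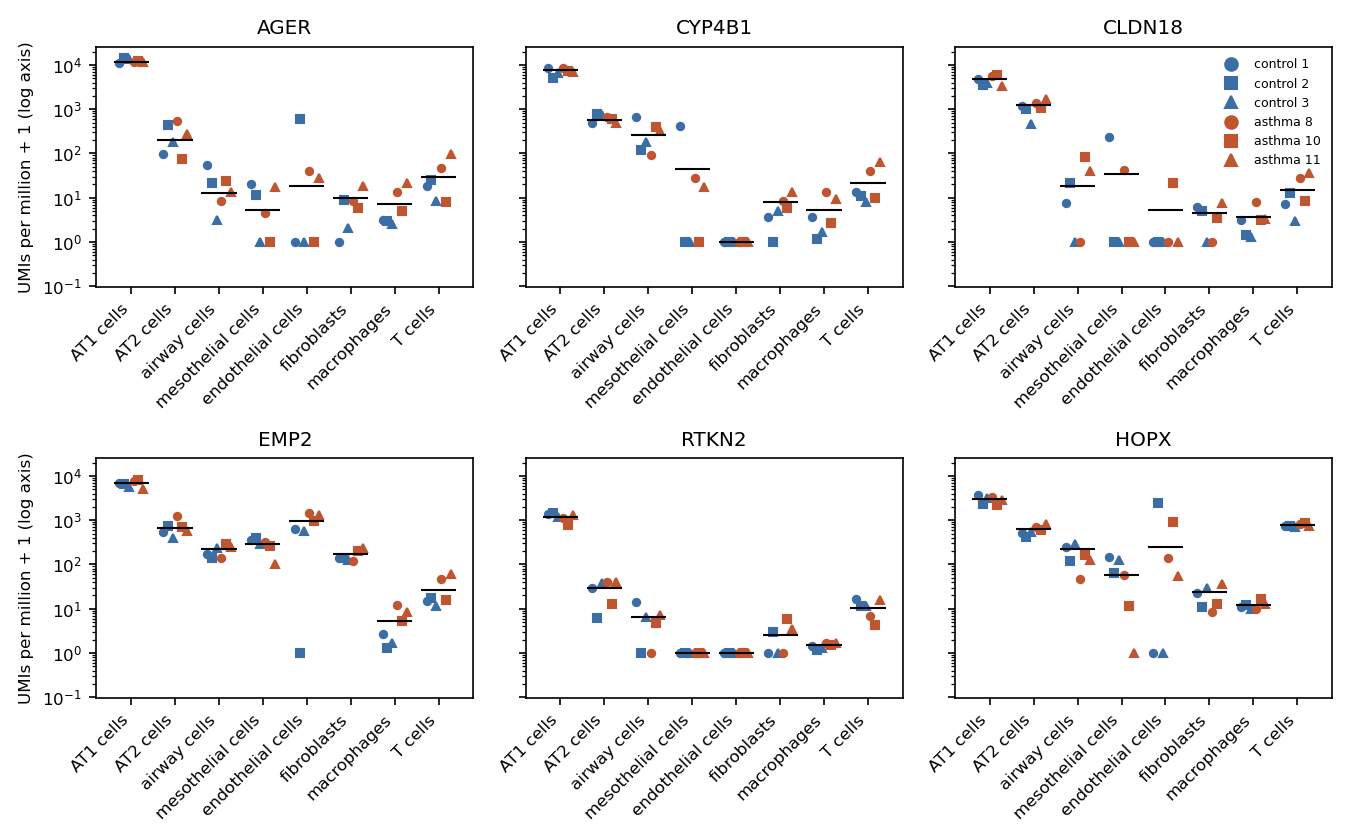
Level of the 6 AT1 genes used by the rule (CPM + 1, log axis) in 8 groups of cells. Each point is 1 library and each black line the level over all libraries pooled. AGER lies near 10000 in the AT1 cells of every library and at 201 in pooled AT2 cells, while HOPX and EMP2 are also seen outside AT1 cells.

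Cells lay on both sides of the thresholds for AGER, the further AT1 genes and the AT2 genes. With the other conditions met, 3 cells had exactly 2 AGER UMIs and were kept, and 14 had 1 and were left out. Likewise 3 kept cells had 2 of the 5 further genes and 5 cells with 1 were left out. At the limit of 2 AT2 genes, 62 of the 288 cells were kept, 22 with 3 were left out, and 66 had 4 or more. Those with 3 numbered 5, 3 and 0 in the control libraries and 3, 4 and 7 in the asthma libraries. The AT1 cells there numbered 18, 4 and 6 and 97, 40 and 123. Relative to these, the loss was larger in control replicates 1 and 2 than in any asthma library. A looser limit on AT2 genes was not tested. A UMI of PTPRC or PECAM1 removed 63 cells that met the rest, and CLDN5 was detected in 0 of them. They numbered 2, 6 and 1 in the control libraries and 19, 2 and 33 in the asthma libraries. In asthma replicate 11, 55 of 178 barcodes that met the gene conditions failed the quality limits (30.9%), 53 of them for 500 or fewer genes, against 12 in asthma replicate 8, 6 in asthma replicate 10 and 0 or 1 in each control library.

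Free RNA, doublets and shared barcodes were measured. AGER was detected in 3.13% of 7922 T cells, which should lack it (median 3736 UMIs per cell), and 2 or more UMIs were seen in 0.417%. The share of T cells with an AGER UMI was highest in asthma replicate 11 (8.73%). AT1 cells had a median of 33 AGER UMIs and a median depth of 2953.5 UMIs. Scrublet with its own threshold marked 0 AT1 cells as doublets. It marked only 2, 0 and 3 retained cells in the control libraries and 2, 3 and 0 in the asthma libraries. With so few marks, the 0 says little about doublets among AT1 cells. When the highest-scoring barcodes of each library were marked at 0.8% per 1000 barcodes, 11 AT1 cells were among them. In asthma replicates 8, 10 and 11 these were 4 of 97, 2 of 40 and 5 of 123 AT1 cells. Of all retained cells there, 216 of 4305, 263 of 4719 and 180 of 4278 were marked. Among the 28 control AT1 cells, 0 were marked, too few cells for a comparison of the groups. Of the AT1 cells, 279 met no other cell gate, 5 also met the fibroblast gate, 2 the macrophage gate, 1 the airway gate and 1 the T cell gate. A total of 137 barcode sequences occurred in more than 1 library, and 1 AT1 barcode was among them.

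The 288 cells differed in depth. Their UMIs ran from 729 to 13541 and their detected genes had a median of 1500.5. Median UMIs per AT1 cell were 3580.5, 3881 and 2750 in the control libraries and 4464, 3331.5 and 2211 in the asthma libraries, so asthma replicate 11 held the most and the shallowest cells. AGER UMIs per cell had quartiles of 14 and 72.25 and reached 205. The cells with 0, 1 and 2 detected AT2 genes numbered 130, 96 and 62, with median UMIs of 2096.5, 3112.5 and 5045. The AGER level of these 3 sets was 11052, 12326 and 12149 CPM. Deeper cells thus showed more AT2 genes, and the AGER level differed little between the sets.

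Among transcripts at 100 or more CPM, the ratio of variance to mean over cells had a median of 1.21 to 1.27 in the 3 asthma libraries. Counting the lowest of the 3 libraries, the ratio was 26.6 for COX2, 18.0 for COX3 and 14.7 for CYTB, all mitochondrial, followed by 13.03 for ADIRF and 7.85 for the calcium-binding gene S100A6. AGER (5.98), CYP4B1 (5.32) and EMP2 (4.85) came next outside the mitochondrial genes. This ranking was not corrected for the depth of the cells. In a thinned set of 1000 UMIs per cell, AT1 cells had library medians of 609 to 711 detected genes, AT2 cells 459.5 to 509.5 and T cells 521 to 572. Ribosomal protein genes took a median of 3.30% of the UMIs of an AT1 cell, against 8.10% of an AT2 cell, 7.72% of a fibroblast and 17.4% of a T cell.

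Of the 20 transcripts with the largest ratio of AT1 to AT2 cells, 9 are named next. The comparison restates the selection and is given without a test. With 10 CPM added to both levels, the ratio of AT1 to AT2 cells was 56.3 for AGER, 49.2 for SCEL (sciellin), 43.5 for UNC13D (a factor of granule release), 42.5 for COL12A1 (a collagen), 42.0 for PALM2AKAP2, 41.0 for SPARC (a matrix protein), 33.2 for CAV1 (the main caveolar coat protein), 31.3 for TNNC1 (a troponin) and 31.1 for IGFBP7. All of these were higher in AT1 than in AT2 cells in 6 of 6 libraries. As a background, 1127 of 1613 genes at 100 or more CPM in AT1 cells (69.9%) were above AT2 cells in all 4 libraries with 10 or more AT1 cells, and 132 (8.18%) were below, so a gene above AT2 cells was the usual case on this relative scale. In AT2 cells surfactant protein C alone took 200722 CPM.

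Against all other retained cells, AGER (ratio 282), CYP4B1 (164), CLDN18 (79.1) and EMP2 (73.3) were used by the rule. The leading genes that it did not use were AQP4 (77.3), a water channel, TNNC1 (76.5), GPRC5A (71.2), a retinoid-induced receptor, FMO2 (68.7), a lung monooxygenase, COL4A3 (65.9), a basement membrane collagen, MAB21L4 (64.7), VEGFA (63.9) and SCEL (61.8). Across the 8 groups of cells, the genes most like AGER by Pearson correlation of log2 levels were RTKN2 (0.962), LIPH (0.957), AKR7A3 (0.9504), ASPSCR1 (0.938) and COL4A3 (0.926), where 8 points and a choice among all genes make high values common. LIPH, a phospholipase, stood at 254 CPM in AT1 cells and at 32.6 in AT2 cells, the next highest group.

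Of 34 listed further AT1 genes, 31 were in the files, 26 reached 100 CPM and 24 of these were above AT2 cells in all 4 larger libraries. The 3 most abundant were TIMP3, VEGFA and CLIC5. TIMP3, an inhibitor of matrix proteases, stood at 4177, 2501 and 4034 CPM in the control libraries and at 4850, 4311 and 3751 in the asthma libraries. CLIC5, an ezrin-binding channel-like protein, stood at 2307, 1310 and 1793 and at 2126, 2237 and 2557. Their groups overlapped. PDPN, the podoplanin used as an AT1 marker in rodents, was lower, at 168 pooled, and was detected in 38.9% of AT1 cells.

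Of 31 listed caveolar and cytoskeletal genes, 24 reached 100 CPM and 23 of these were above AT2 cells in all 4 larger libraries. CAV1 stood at 1171, 476 and 1008 CPM in the control libraries and at 1339, 1303 and 1045 in the asthma libraries. CAV2 had a pooled level of 1407, CAVIN2 1647 and CAVIN1 605, against 65.9, 57.0 and 142 in AT2 cells. MYL12A, a myosin light chain, and ANXA2, a membrane-binding annexin, were the most abundant of those listed, at 2999 and 2845. Ezrin (EZR) differed less, with 491 in AT1 and 360 in AT2 cells.

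All 19 of the 30 listed basement membrane and integrin genes that reached 100 CPM were above AT2 cells in the 4 larger libraries. The type IV collagen chains COL4A3 and COL4A4 had pooled levels of 872 and 437, COL4A2 798 and the laminin chain LAMA3 477, against 37.7, 30.8, 27.7 and 39.7 in AT2 cells. SPARC was at 2063, the tetraspanin CD151 at 1172 and the laminin receptor subunit ITGA3 at 451. LAMA3 varied little between libraries, at 497, 476 and 504 in the control libraries and 439, 564 and 481 in the asthma libraries.

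Of 30 listed junction genes, 14 reached 100 CPM and 13 of these were above AT2 cells in all 4 larger libraries, led by the scaffolds AFDN (612), TJP1 (591) and CGNL1 (409). CLDN4 was near 0 (1.82) and CLDN7 was at 130 against 106 in AT2 cells. CLDN18, which the rule used and which is not on this list, was at 4748 against 1256.

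Of 29 ion and water transport genes, 13 reached 100 CPM, 9 of them above and 2 below AT2 cells in all 4 larger libraries. AQP1, a water channel better known from capillaries, stood at 2142, 2859 and 3978 CPM in the control libraries and at 2230, 2055 and 1909 in the asthma libraries, and the groups overlapped. AQP4 was at 1369 pooled. AQP5, the water channel that marks AT1 cells in rodents, was at 233 pooled, against 319 in pooled AT2 cells. This order did not hold in each library. AQP5 was higher in AT1 than in AT2 cells in control replicate 1 (367 against 350 CPM). The same held in asthma replicates 8 (239 against 190) and 10 (470 against 359). It was lower in asthma replicate 11 (78.3 against 229) and not higher in control replicates 2 and 3. Its AT1 level ranged from 0 UMIs in control replicate 2 to 672 CPM in control replicate 3. The epithelial sodium channel subunit SCNN1A was at 431 against 128.

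Among signals to capillary and mesenchyme, 9 of 32 listed genes reached 100 CPM and all 9 were above AT2 cells in the 4 larger libraries. VEGFA stood at 1645, 2442 and 2577 in the control libraries and at 2885, 3666 and 2306 in the asthma libraries, with 124 in pooled AT2 cells, and the groups overlapped. The YAP target genes CCN1 and CCN2 were at 989 and 822, the semaphorin SEMA3B at 736, PDGFA at 116 and TGFB2 at 105. Of 28 Hippo pathway genes and targets, 4 reached 100 CPM, and YAP1 itself was at 58.4 against 55.0 in AT2 cells. Of 33 lung transcription factors, 10 did. NKX2-1 was at 553 against 368 in AT2 cells, FOXA2 at 322 against 165, and MYRF at 313 against 36.6, and 8 of the 10 were above AT2 cells in all 4 larger libraries.

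**Figure D2:**
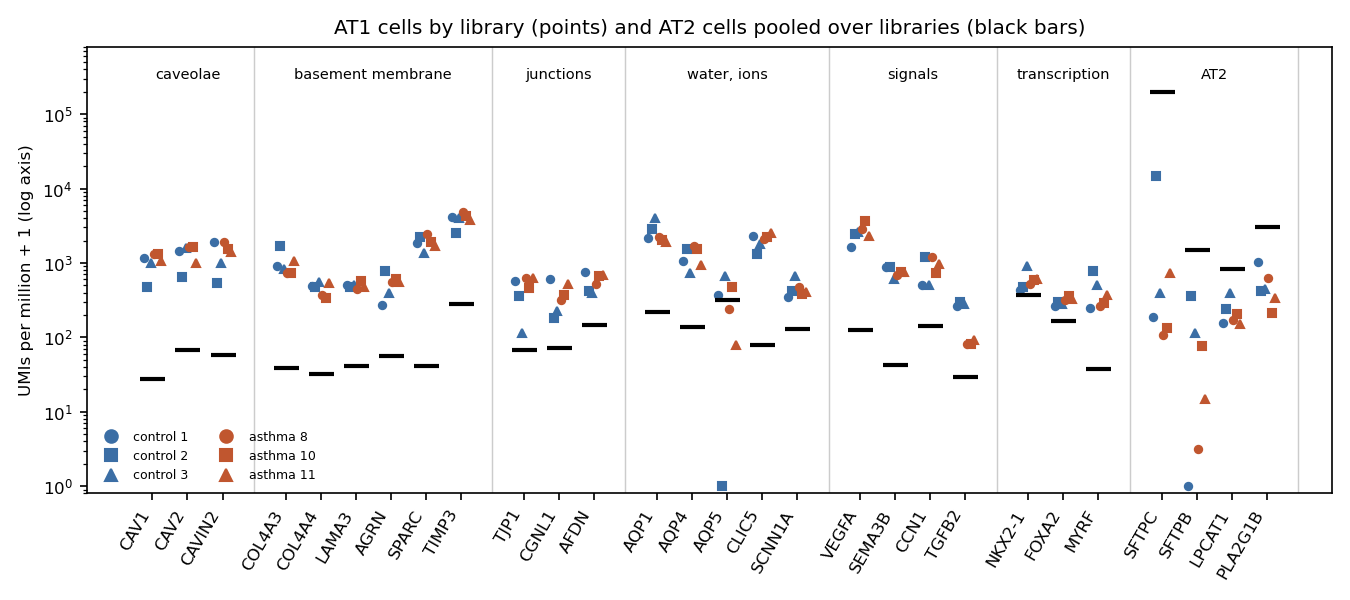
Level of AT1 genes by role (CPM + 1, log axis), with 1 point per library for AT1 cells and a black bar for AT2 cells pooled over libraries. Points of caveolar, basement membrane and signalling genes lie above the AT2 bar, and AQP5 spreads around it. SFTPC lies below its bar in every library, highest in control replicate 2 at 14949 CPM against 200722 in pooled AT2 cells.

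Surfactant and other AT2 genes were low in AT1 cells. Of 25 listed, 7 reached 100 CPM and 6 of these were below AT2 cells in all 4 larger libraries. SFTPC stood at 189, 14949 and 392 CPM in the control libraries and at 107, 132 and 735 in the asthma libraries. All 251 SFTPC UMIs of control replicate 2 came from 1 cell. In asthma replicate 11, SFTPC was detected in 81.3% of AT1 cells and in 82.5% of T cells, so its presence there was at the level of a cell type that should lack it. SCGB3A2, a secretoglobin, was at 16.4 in AT1 and 18882 in AT2 cells, and the protease inhibitor SPINK1 had 0 UMIs in AT1 cells against 886 CPM in AT2 cells, although it was also at 0 in the AT2 cells of control replicate 2. Of 20 listed genes linked to the AT2 to AT1 transition, 6 reached 100 CPM, as did 1613 of all 21095 genes with a symbol. The 6 were led by KRT19 (1228), LGALS3 (767) and FN1 (420), while SFN had 0 UMIs in AT1 and AT2 cells alike.

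Genes of defence and inflammation were present in part. S100A6, a proposed AGER ligand, was at 10482 CPM in AT1 and 1271 in AT2 cells, and S100A4, another, at 1400 and 54.4. HMGB1 was at 709 and 759. Of 34 listed genes of xenobiotic and oxidant enzymes, 14 reached 100 CPM, against 1613 of all 21095 genes with a symbol. The 14 were led by FMO2 (2896), GSTP1 (1939) and CES1 (875). PTGR1, a reductase of prostaglandins and leukotrienes, differed between animals, at 4390, 655 and 2129 in the control libraries and 5796, 4073 and 1054 in the asthma libraries. It was low in 1 animal of each group. ICAM1, the leukocyte adhesion molecule, was at 828 against 37.5 in AT2 cells and 47.4 in all other retained cells.

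Genes of the type 2 cytokine response and alarmins were at or near 0 at this depth. Of 26 listed type 2 cytokine response genes, 11 had 0 UMIs over all AT1 cells and only IL13RA1 (231) reached 100 CPM, below the 354 of AT2 cells. Of 11 alarmin genes and receptors, 10 were in the files and 7 had 0 UMIs, with IL33 highest at 7.30. Interferon response genes were led by IFI6 (174), antigen presentation genes by CALR (420), IL-17 and NF-kB response genes by ICAM1 and NFKBIA (545), immediate-early genes by DUSP1 (1146), and heat shock genes by HSP90AA1 (1235). MKI67, the proliferation marker, had 0 UMIs in AT1 cells, and the cell cycle list was led by CCND1 (308).

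The first comparison asked whether AT1 cells made up another share of the cells in the asthma group. AT1 cells were 0.399% of retained cells in control replicate 1 (exact 95% interval 0.237 to 0.630), 0.114% in control replicate 2 (0.0310 to 0.291) and 0.148% in control replicate 3 (0.0542 to 0.321). They were 2.25% in asthma replicate 8 (1.83 to 2.74), 0.848% in asthma replicate 10 (0.606 to 1.15) and 2.88% in asthma replicate 11 (2.40 to 3.42). All 3 asthma libraries lay above all 3 control libraries. The means were 0.220% ± 0.156 (SD, n = 3) and 1.99% ± 1.04 (SD, n = 3), a difference of 1.77 percentage points and a ratio of 9.05, or 15.2 without control replicate 1. The two-sided exact permutation test gave p = 0.1, the smallest that 3 against 3 libraries allow, and 0.1 after Benjamini-Hochberg adjustment over 3 shares. The intervals are exact binomial ones and cover counting error only.

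The order held over other denominators. Of retained cells with no PTPRC UMI, AT1 cells were 2.43%, 1.02% and 0.768% in the control libraries and 9.77%, 3.76% and 8.27% in the asthma libraries (difference 5.86 points, exact permutation p = 0.1). Of AT1 and AT2 cells together, they were 13.04%, 11.1% and 18.8% in the control and 69.8%, 29.2% and 48.8% in the asthma libraries (14.3% ± 3.97 and 49.3% ± 20.3, SD, n = 3; exact permutation p = 0.1). Here, when only cells without any AT2 gene were counted as AT1 cells, the groups overlapped (difference 24.8 points, exact permutation p = 0.2). AT2 cells themselves were 1.40% ± 1.10 and 2.02% ± 1.02 of retained cells, with overlapping groups (exact permutation p = 0.5). AGER over all barcodes of a library, with no cell selection, was 40.5, 28.7 and 20.5 CPM in the control libraries and 187, 61.5 and 239 in the asthma libraries. The selected AT1 cells held 56.3%, 25.4% and 36.5% of these UMIs in the control and 69.6%, 77.4% and 61.6% in the asthma libraries. Whole-library levels of the genes of the rule thus restate the selection in part and are no further support. Of the other AT1 genes of the rule, EMP2 and CYP4B1 were higher in all 3 asthma libraries too. RTKN2 and CLDN18 were not, since asthma replicate 10 lay below control replicate 1 (5.42 against 9.10 CPM for RTKN2 and 62.5 against 63.5 for CLDN18). HOPX, which T cells also make, was at 249, 329 and 332 in the control and 267, 292 and 281 in the asthma libraries. Of the 15 genes that most separated AT1 cells from all other cells and that the rule did not use, 13 were higher in the whole libraries of all 3 asthma animals than of any control animal, a separation seen for 15.4% of the 11434 genes measured, and FMO2 and PTGR1 were the exceptions. These genes were picked from the selected AT1 cells, 260 of 288 of them from asthma libraries. The same cells are part of the whole libraries, so this too restates the selection in part and is no further support.

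**Figure D3:**
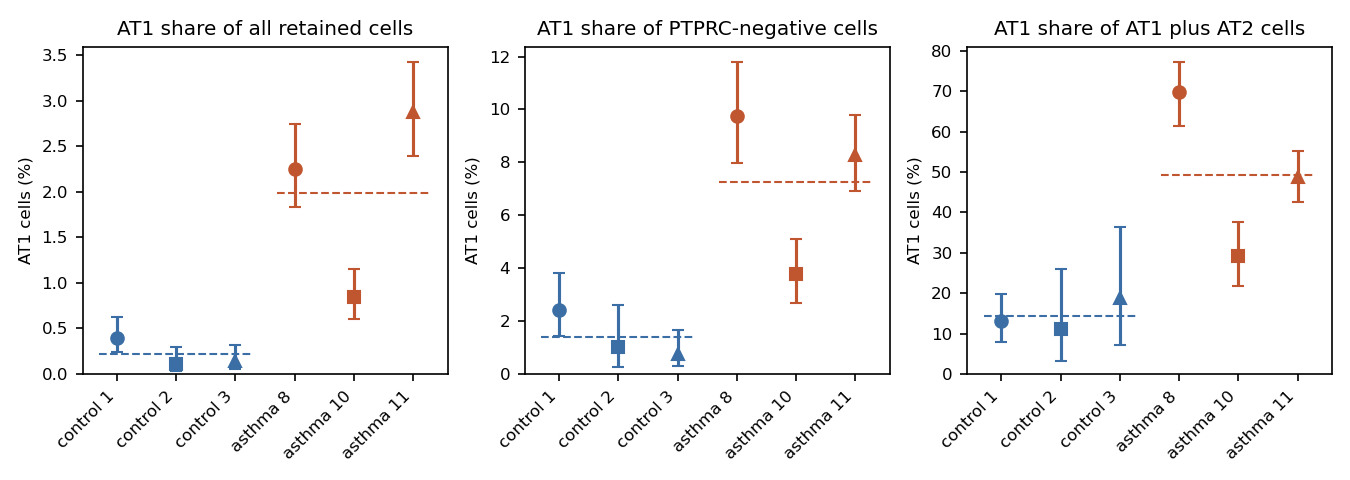
AT1 cells as a percentage of retained cells, of PTPRC-negative cells and of AT1 plus AT2 cells. Points are libraries, bars exact 95% binomial intervals and dashed lines group means; every asthma library lies above every control library in all 3 panels.

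These shares are of barcodes recovered after tissue dissociation. The part of lung sampled and the recovery of AT1 cells in each animal were not tested, and with 1 library per animal, a library and its animal cannot be told apart.

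The second comparison asked which genes differed within AT1 cells between the groups. Libraries with 5 or more AT1 cells entered, which left out control replicate 2 and set 2 control against 3 asthma libraries. No gene of the 3361 tested passed an adjusted p of 0.05 and an absolute log2 change of 0.25 in the quasi-likelihood test of edgeR, adjusted after Benjamini and Hochberg (0% called in each direction). The smallest adjusted p was 0.200, and 164 genes had an unadjusted p under 0.05, with 102 higher (3.03%) and 62 lower (1.84%) in asthma. DESeq2 called 0 genes higher and 1 lower, SOD2. The median log2 change of all genes was 0.05. Of the 30 gene lists, none had a called member. In edgeR, standard errors (SE) were derived as the absolute log2 change over the square root of F.

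The genes nearest to a call are given as values that did not pass. Those with the smallest p in the higher direction included KLF6 and PPP1R15A, both on the immediate-early list. KLF6, an immediate-early transcription factor, stood at 237, 417 and 280 CPM in the control libraries and at 652, 551 and 802 in the asthma libraries. All asthma libraries were above all controls, control replicate 2 included, with a log2 change of 1.45 ± 0.38 (SE; edgeR adjusted p = 0.719). PPP1R15A, a phosphatase subunit of the integrated stress response, stood at 59.2, 59.6 and 56.0 and at 209, 188 and 198, from only 5, 1 and 1 UMIs in the control libraries (log2 change 1.75 ± 0.51, edgeR adjusted p = 0.914). HBEGF, a ligand of the EGF receptor, stood at 47.3, 59.6 and 112 and at 143, 307 and 226, from 4, 1 and 2 control UMIs (log2 change 1.84). IGFBP5 stood at 71.0, 179 and 112 and at 280, 226 and 268, with a log2 change of 1.70. Its level in control replicate 3 lay below the limit of 3 UMIs, which is 168 CPM there. When cells with 1 AGER UMI were admitted, which also brought control replicate 2 into the fit with 6 cells, the change of IGFBP5 turned to -0.39 and that of PPP1R15A was 0.28. The 2 cells so added in control replicate 2 and the 2 in control replicate 3 gave 60.3% and 59.3% of the UMIs of those libraries in that fit, and the latter 2 gave 29 UMIs of IGFBP5 and 17 of PPP1R15A. With control replicate 2 fitted and the AGER limit kept, they were 1.41 and 1.73.

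QSOX1, a thiol oxidase, had 7, 0 and 1 UMIs in the control libraries and 145, 35 and 116 in the asthma libraries (log2 change 1.90). TAGLN, an actin-binding protein, had 1, 1 and 0 control UMIs and 42, 12 and 39 asthma UMIs, 14 of the 42 from 1 cell. MT3, a metallothionein, had 1, 1 and 0 and 44, 10 and 35. With 1 UMI in the fitted controls, no fold is given for TAGLN and MT3. ERG28, ADRM1 and HERPUD2 completed the 10 genes, and their separation did not include control replicate 2. All 10 were separated in the 5 fitted libraries, as were 15.7% of all tested genes, and 7 of the 10 in all 6 libraries, as were 8.63%. These genes were chosen by p in the same libraries, so their separation is no further support.

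In the lower direction TGFB2, a growth factor that promotes matrix deposition, was separated in all 6 libraries. It stood at 260, 298 and 280 CPM in the control libraries and at 80.4, 81.5 and 92.2 in the asthma libraries, from 22, 5 and 5 and from 37, 13 and 33 UMIs. Every control library was above every asthma library, the highest single cell gave 5 of the 22 UMIs of control replicate 1, and the log2 change was -1.63 ± 0.38 (SE; edgeR adjusted p = 0.439). ND4L, a mitochondrial gene, stood at 899, 1013 and 952 and at 411, 351 and 517 (log2 change -1.05). Without control replicate 1 it was -0.62, or -1.23 against -1.10 relative to the median of all genes in each fit. It is one of the 13 genes whose summed share was limited when cells were retained. The RNA-binding gene RBM47 had 14, 2 and 2 UMIs in the control libraries, below the limit of 3 in replicates 2 and 3, and its log2 change was -1.51.

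SOD2, the mitochondrial superoxide dismutase, had the smallest p but rested on single cells. It stood at 319, 0 and 1793 CPM in the control libraries and at 73.9, 113 and 190 in the asthma libraries. In control replicate 1, 1 cell gave 21 of 27 UMIs, and in control replicate 3, 1 cell gave 26 of 32. Control replicate 2, which was not fitted, had none, so over 6 libraries the groups overlapped. Its log2 change was -2.61 ± 0.51 (SE; edgeR adjusted p = 0.200), which became -3.30 without control replicate 1 (adjusted p = 0.00852) and -1.40 without control replicate 3 (adjusted p = 0.748). Each of these fits had 1 control library, whose spread was assumed to be that of the asthma libraries. Without control replicate 1 the median log2 change over the 3361 genes was 0.61, against 0.05 in the fit of 5 libraries, while SOD2 fell. Relative to these medians SOD2 was at -3.91 and -2.65. The summed granulocyte and mast cell markers were also highest in control replicate 3, and their part in SOD2 was not tested. CP, ceruloplasmin, at 994, 119 and 448 against 313, 263 and 123, had a log2 change of -1.80 (edgeR adjusted p = 0.301). It was -2.16 without control replicate 3 (adjusted p = 0.0290) and -0.43 without control replicate 1 (adjusted p = 0.840), again with 1 control library, or -1.04 relative to the median of that fit against -1.84 in the fit of 5 libraries. All 10 lower genes, among them SF3B3, HSPH1, SPATS2L and RARRES1, were separated in the 5 fitted libraries (10.3% of all tested genes) and 4 in all 6 (3.93%), counts that include control levels under 3 UMIs.

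**Figure D4:**
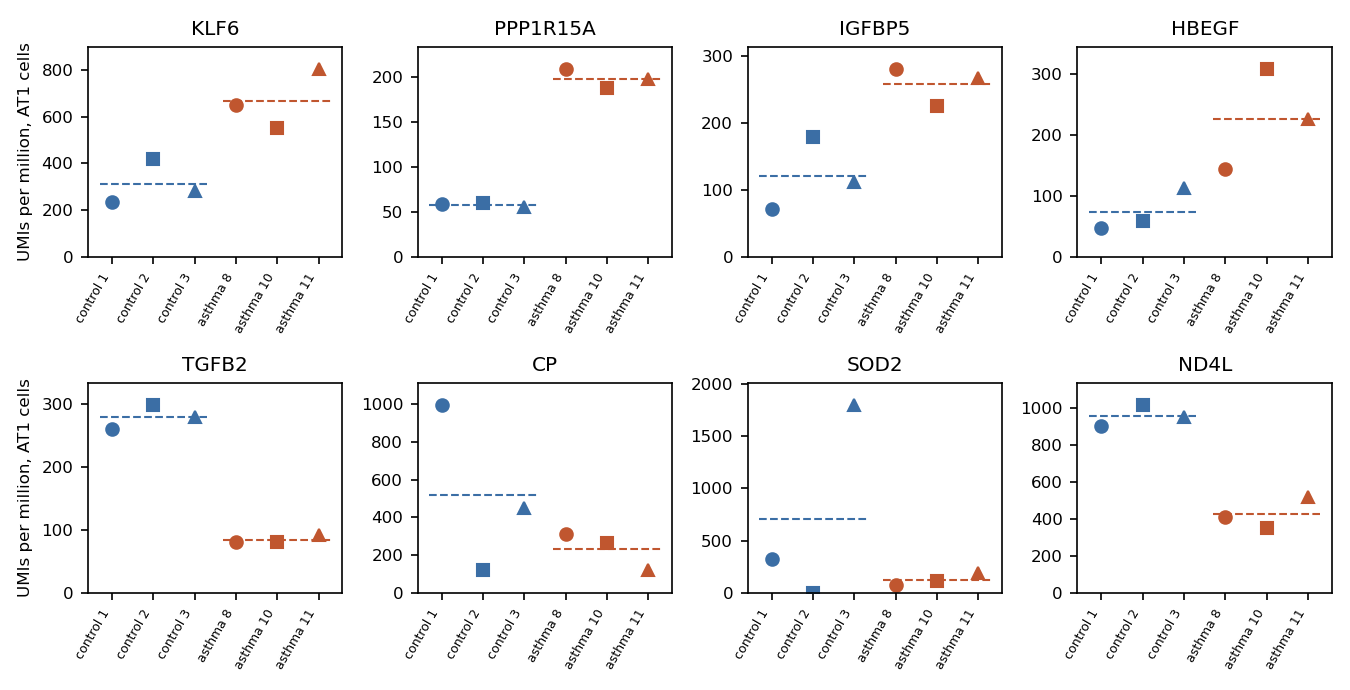
Level of 8 genes in AT1 cells by library (CPM, linear axes from 0, dashed lines for group means). The 4 genes of the upper row are higher and TGFB2 and ND4L lower in all 3 asthma libraries than in any control library, whereas for SOD2 and CP control replicate 2 lies among or below the asthma libraries.

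The structural lists are described by their medians, which were not tested and cover genes that went both ways. The further AT1 genes had a median log2 change of 0.12 over 30 tested genes, caveolar and cytoskeletal genes 0.18 over 26, junction genes 0.09 over 18, and ion and water transport genes -0.03 over 16. Basement membrane genes had a median of 0.23 over 19 and 3 of them an unadjusted p under 0.05 in the higher direction, against 3.03% of all genes. These were the laminin chain LAMC1 (35.5, 179 and 56.0 against 143, 119 and 115 CPM), AGRN (272, 774 and 392 against 554, 614 and 551) and the collagen receptor subunit ITGA2 (308, 536 and 112 against 667, 564 and 447). In each of the 3, control replicate 2 lay among or above the asthma libraries. In control replicate 3, LAMC1 and ITGA2 lay below the limit of 3 UMIs, which is 168 CPM there. Signals to capillary and mesenchyme had a median of 0.46 over 11 genes, with CCN1 higher and TGFB2 lower at an unadjusted p under 0.05, against 3.03% and 1.84% of all genes. ATP1B1, a sodium pump subunit (379, 357 and 224 against 535, 608 and 576 CPM), was not called but was separated in all 6 libraries, as were 8.63% of all tested genes in this direction. SCNN1G, a sodium channel subunit, had 3, 1 and 0 UMIs in the control libraries, too few to compare with its asthma levels of 111, 113 and 126 CPM.

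For lists of regulation and stress, the median log2 change was likewise untested and was 0.25 over 14 lung transcription factors, -0.21 over 10 Hippo genes, -0.02 over 7 transition genes, 0.30 over 14 immediate-early genes, 0.12 over 14 heat shock genes, 0.09 over 15 oxidant defence genes and -0.07 over 9 AGER ligands and signalling genes. It was -0.20 over 9 AT2 genes, of which 2 had an unadjusted p under 0.05, both lower, against 1.84% of all genes. Too few inflammatory genes were abundant enough for a summary, with 2 tested in the type 2 list, 4 in the IL-17 and NF-kB list, 3 in the interferon list, 5 in the antigen presentation list, 3 in the cell cycle list and 0 in the alarmin list. Of 22 genes that the study names for epithelial cells, a list chosen on these same animals, 7 were tested and their median was 0.18.

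Markers of other cells were seen in AT1 cells at sums that differed between libraries, and their part in any difference was not tested. Summed over 13 T and NK cell markers, the level was 11.8, 357 and 280 CPM in the control libraries and 56.5, 50.1 and 240 in the asthma libraries, led by GZMB (45.6 pooled), against 15786 in T cells. The 16 macrophage markers summed to 533 pooled, led by APOE (185) and LYZ (132), with C1QA at 2.74. Fibroblast and smooth muscle markers summed to 648 in asthma replicate 11 and to 0 to 238 in the other libraries, led by DCN (68.4) and, at 72.7 in asthma replicate 11 alone, by the pericyte gene COX4I2. Granulocyte and mast cell markers summed to 1401 in control replicate 3 and to at most 138 elsewhere, led by S100A9.

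Airway markers summed to 117 pooled and B and plasma cell markers to 20.1, KRT5 had 0 UMIs, and red blood cell genes summed to 7.30. Endothelial markers summed to 1101, mostly from EPAS1 (547) and ADGRL2 (271), genes that epithelium also makes, while VWF was at 2.74. Of the mesothelial markers, which summed to 505, ITLN1 (267, limited by the rule) and UPK3B (225) were seen, and MSLN was at 8.21. UPK3B was detected in 37.5% of AT1 cells, at 248, 59.6 and 336 CPM in the control and 54.3, 282 and 416 in the asthma libraries, and its source was not tested.

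The third comparison asked whether the difference between the groups was another one in AT1 than in AT2 cells of the same animals. Each library served as a block, control replicate 2 was again left out, and 6937 genes were tested with edgeR's quasi-likelihood test. The change was more positive in AT1 cells for 11 genes (0.159%) and more negative for 3 (0.0432%), and 404 genes had an unadjusted p under 0.05. DESeq2 called 1 gene more positive and 0 more negative. Each gene took the spread that edgeR fitted for genes of its abundance, since no gene-specific part was estimated. The p-values of this comparison thus do not use the spread between animals of the gene itself.

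DEFB1, an epithelial antimicrobial peptide, stood in AT1 cells at 94.7, 179 and 280 CPM in the control and at 591, 175 and 109 in the asthma libraries. In AT2 cells it stood at 57.3, 5.32 and 82.7 and at 17.7, 26.9 and 0. The log2 change in AT1 minus that in AT2 cells was 3.27 ± 0.54 (SE; edgeR adjusted p = 7.14e-06), while the AT1 levels of the groups overlapped. For HBEGF the difference of changes was 3.42 ± 0.58 (adjusted p = 1.44e-05), with AT2 levels of 278, 47.9 and 376 in the control and 59.7, 307 and 72.0 in the asthma libraries. For KLF6 it was 2.44 ± 0.47 (adjusted p = 0.000416), with AT2 levels of 352, 42.6 and 314 and of 133, 331 and 157. For both genes the AT2 levels of asthma replicates 8 and 11 lay below those of the fitted controls, that of asthma replicate 10 lay between them, and that of control replicate 2 was the lowest of all.

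HSPA5, the chaperone BiP of the endoplasmic reticulum, had a difference of 2.23 ± 0.47 (edgeR adjusted p = 0.00309), with AT1 levels of 225, 655 and 168 in the control and 380, 683 and 456 in the asthma libraries. Its AT2 levels were 392, 389 and 480 and 208, 323 and 194, so all 3 asthma libraries lay below all 3 controls in AT2 cells, while the AT1 levels overlapped through control replicate 2. The other symbols were CCN1 (2.01, adjusted p = 0.00438), RASD1, a glucocorticoid-induced small GTPase (2.02, adjusted p = 0.0340), and CLU, clusterin (1.78, adjusted p = 0.0397), on the positive side. CLU ran from 0.55 to 2.87 over the alternatives. MT3 was called too (adjusted p = 0.0340), on 1, 1 and 0 UMIs in the AT1 cells of the control libraries. SCGB3A1 (6.33, adjusted p = 0.0340) rested on 1 library, with 4167 CPM in the AT2 cells of control replicate 3 and at most 6.27 in those of any other. SLC6A14, an amino acid carrier, had the more negative change (-2.91, adjusted p = 0.0267), but its log2 ratios of AT1 to AT2 cells overlapped in the fitted libraries, at 1.64 and -1.96 against -1.33, -0.94 and -0.86, and it was 4.84 without control replicate 1, with 1 control library left and 0 UMIs in its AT1 cells (median over all genes 0.83, against 0.17 in the fit of 5 libraries). ITLN1 was also called, but the rule had used it.

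Control replicate 2, with 4 AT1 cells, did not sit with the other controls. Its log2 ratio of AT1 to AT2 levels, with 10 CPM added, was 3.02 for KLF6, against -0.55 and -0.16 in the fitted controls and 2.21, 0.72 and 2.28 in the asthma libraries. It lay within or above the asthma libraries also for DEFB1, HBEGF, CCN1, RASD1 and CLU. Of the 9 genes with a symbol and a more positive change, only HSPA5 and MT3 were separated between the groups with control replicate 2 included. For HSPA5 the ratios were -0.78, 0.74 and -1.46 in the control libraries and 0.84, 1.06 and 1.19 in the asthma libraries. With control replicate 2 fitted, 2 genes stayed more positive, HBEGF and DEFB1, and 4 were more negative. The count of more positive genes also fell to 2 without control replicate 1, without asthma replicate 8 or without asthma replicate 11, and to 4 without control replicate 3.

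**Figure D5:**
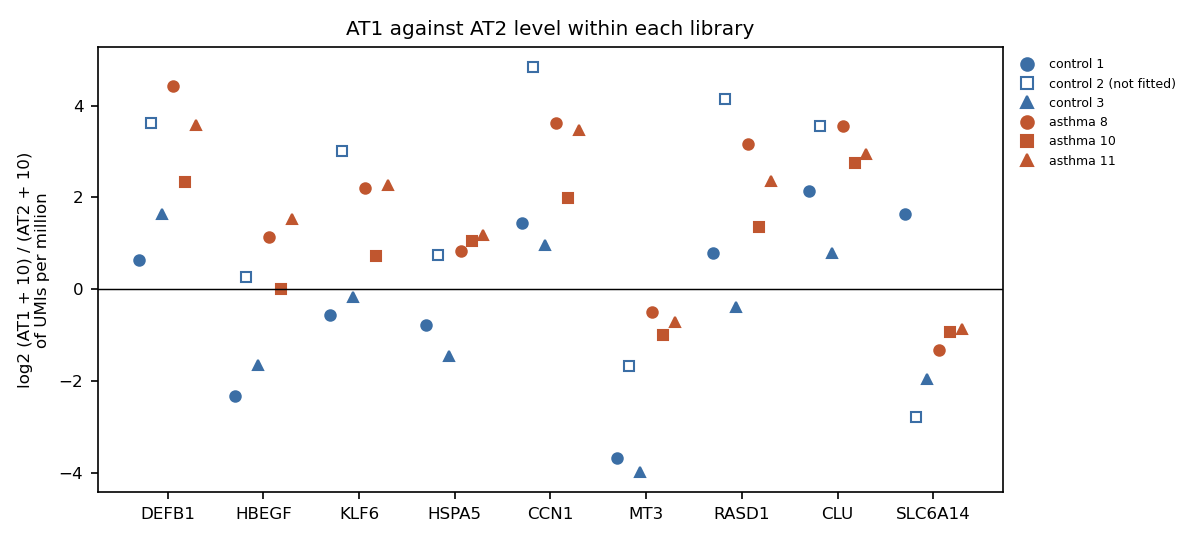
Log2 ratio of AT1 to AT2 level (10 CPM added to each) by library for 9 genes whose asthma change differed between AT1 and AT2 cells. Control replicate 2, an open square, was not fitted; it lies among or above the asthma points for DEFB1, HBEGF, KLF6, CCN1, RASD1 and CLU and below all of them for HSPA5 and MT3.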

How the data were processed

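Lung tissue of 6 cynomolgus monkeys was dissociated, depleted of dead cells and sequenced with 10x Genomics 3′ v3 chemistry, 1 library per animal. The authors deposited matrices of raw UMI counts per gene and barcode, made with Cell Ranger against the monkey genome. The labels name Cell Ranger 2.1.1 and the file headers 4.0.0, and replicates were not pooled. Of 28623 genes, 21095 had a symbol, and genes without one took 15.7% of the AT1 UMIs.

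Here barcodes were filtered and AT1 cells selected as stated above. AT2 cells met the same filters with at least 4 of the 6 AT2 genes. The members, gene lists and tests were chosen with earlier results of these data known. UMIs were summed per library and cell type and tested with edgeR 4.0.16 (TMM, filterByExpr, quasi-likelihood, Benjamini-Hochberg over all genes tested) in R 4.3.3. A gene was called at an adjusted p under 0.05 and an absolute log2 change over 0.25. The planned minimum of 10 AT1 cells left 1 control library, so a minimum of 5, was used, and 20 could not be fitted either. Shares were compared by two-sided exact permutation over libraries. The genes named for asthma are the 10 with the smallest p in each direction, since none was called, and 1 gene of the lower direction is not reported here. For each list the plan was to name the members called and the 3 most abundant, and for AT1 against other cells the 20 largest ratios. Other list members, such as MYRF, FOXA2, AQP5 and PDPN, were named outside this plan. Genes named for single-cell markers, spread over cells or an unadjusted p in a list were chosen after their values were seen. The fits were tested on simulated counts. Alternatives were DESeq2 1.42.0, RLE size factors, no count filter, other cell limits, removal of the highest Scrublet scores (scanpy 1.11.5) and leaving out each library. All 6 libraries in the fit was added after seeing the data. No correction for free RNA was made.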

Additional observations from a re-analysis of the deposited data

Results flagged for a closer look

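With ITLN1 set aside, a test of the difference itself called 10 genes with a symbol whose asthma change differed between AT1 and AT2 cells. ITLN1 was also called (-2.34), but the rule had used it. The 10 genes are the results marked for a second look. The log2 change in AT1 minus that in AT2 cells was 3.27 for DEFB1, 3.42 for HBEGF, 2.44 for KLF6, 2.23 for HSPA5, 2.01 for CCN1, 6.33 for SCGB3A1, 3.99 for MT3, 2.02 for RASD1, 1.78 for CLU and -2.91 for SLC6A14. Of 15 alternative fits, HBEGF was called in 13, DEFB1 in 11, HSPA5 in 10, KLF6 in 9, CCN1 in 8, SLC6A14 in 7, MT3 and RASD1 in 6 each, SCGB3A1 in 6 of the 12 that tested it and CLU in 4. Over these fits the value of HBEGF ran from 2.85 to 3.95, DEFB1 from 2.72 to 4.67, HSPA5 from 1.58 to 3.11, KLF6 from 1.27 to 2.94, CCN1 from 1.06 to 2.66, RASD1 from 1.36 to 3.31 and CLU from 0.55 to 2.87. MT3 ran from 2.99 to 7.85 and SCGB3A1 from 5.45 to 10.9, both on few UMIs in AT1 cells of the controls, so their values are no measure of size. That of SLC6A14 ran from -3.21 to 4.84. Its highest value and those of HSPA5, CCN1, RASD1, CLU and MT3 came without control replicate 1, from a fit with 1 control library in which the median over all genes was 0.83, against 0.17 in the reported fit. In control replicate 1 SLC6A14 stood at 154 CPM in AT1 cells, in control replicates 2 and 3 at 0.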

How the results depend on the processing

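No paired analysis was possible because the groups share no replicate numbers. The share of AT1 cells kept its direction under every alternative, with differences of 1.33 to 2.34 percentage points of retained cells when 1 library was left out and of 0.841 to 1.80 under the 7 other settings, at an exact permutation p of 0.1 to 0.2, and the design could not reach 0.05. The number of genes lower in AT1 cells of asthma animals was 0 in the reported fit and 1 with DESeq2, 1 without a count filter and 1 with the highest Scrublet scores removed (SOD2 in each), 2 with 1 AGER UMI admitted (GSTA5 and CXCL17, both among the leading AT2 genes), a setting that also brings control replicate 2 into both fits, and 0 to 4 when 1 library was left out. The 1, 2 and 2 cells so admitted in the control libraries gave 81, 28 and 10 UMIs of GSTA5 and 30, 3 and 9 of CXCL17. Leaving out control replicate 1 or 3 left 1 control library in the fits. Without control replicate 1 the median over all genes of the reported fit was 0.61 against 0.05 in AT1 cells and 0.83 against 0.17 for the difference from AT2 cells, and without a count filter the former was 0.23, so values and counts of these settings hold that shift. Genes with a more positive change in AT1 than in AT2 cells numbered 11, against 1 with DESeq2, 6 without a count filter, 2 with all 6 libraries, 6 at a mitochondrial limit of 10%, 15 with no maximum of genes per cell, 13 with the highest Scrublet scores removed, 2 with 1 AGER UMI admitted, and 2 to 9 without 1 library. Those with a more negative change numbered 3, against 0 with DESeq2, 1 without a count filter and 1 to 4 without 1 library. IGFBP5 reversed to -0.39 with 1 AGER UMI admitted and control replicate 2 thereby fitted, and was 1.41 with all 6 libraries at the reported AGER limit. No gene named for asthma passed the threshold in the reported fit of AT1 cells alone. Of 264 values under the alternatives, 5 passed it, SOD2 in 4 and CP in 1, and 7 kept their direction at less than 50% of the reported change. These were PPP1R15A, ADRM1 and TAGLN with 1 AGER UMI admitted, and CP, RBM47, HSPH1 and SPATS2L without control replicate 1. There HSPH1 went from -1.50 to -0.04, or from -1.55 to -0.65 relative to the medians. On that relative scale RBM47 was -1.14 against -1.56, SPATS2L -1.02 against -1.36 and CP -1.04 against -1.84, all above 50%. HBEGF, at 0.86 against 1.79, fell below 50% on that scale. The setting with no maximum of genes per cell held the same AT1 cells and is not counted. Minima of 10 and 20 AT1 cells and the setting with no AT2 gene could not be fitted. The 28 control cells limit what can be seen, as 1 UMI equals 11.8, 59.6 and 56.0 CPM in the control libraries.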

Other observations

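Several abundant transcripts of AT1 cells belonged to none of the gene lists. ADIRF, a small gene first described in fat tissue, was at 7573, 2621 and 7283 CPM in the AT1 cells of the control libraries and at 9078, 6084 and 7043 in those of the asthma libraries. Pooled, it stood at 2542 in mesothelial cells, 1830 in endothelial cells, 1549 in fibroblasts and 1443 in airway cells. AT2 cells had 1194, T cells 65.9 and macrophages 13.8. PAPSS2, which makes the sulfate donor for sulfation reactions, was at 1716 pooled against 70.3 in AT2 cells, and MAP2, a microtubule protein best known from neurons, at 343 against 5.10. Both were above AT2 cells in 6 of 6 libraries. PALM2AKAP2 was at 670 against 6.21. These genes were chosen after their values were seen, and the contrast with AT2 cells is the one by which the cells were selected.

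One gene without a symbol, ENSMFAG00000001776, had an AT1 pattern. It was detected in 84.0% of AT1 cells, at 970, 834 and 672 CPM in the control and 1174, 1247 and 1283 in the asthma libraries. In AT2 cells it had 0 UMIs in the 3 control libraries and stood at 26.5, 27.8 and 10.3 in the asthma libraries, where AT1 cells were also more frequent. It was one of the 3 genes with a more negative change in AT1 than in AT2 cells, a call that rests on those low AT2 counts. Genes without a symbol took 12.8% to 19.2% of the UMIs of AT1 cells by library, so the gene lists do not see that share.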
